A study of Homo sapiens with 6 samples.

Results

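The angiogenic growth factors described here are 10 genes, each read by 1 of the 23934 probe sets that carry a gene symbol. They are VEGFA, VEGFB, VEGFC, PGF, ANGPT1, ANGPT2, FGF2, PDGFA, PDGFB and ANGPTL4. They were chosen by symbol, through the Entrez gene ID in the probe set name, and all 10 were found. Affymetrix arrays measured transcripts in 6 subcutaneous tumours. They grew in nude mice from Huh7 cells, an established line of human hepatocellular carcinoma. The cells of 3 tumours carried the plasmid pRcCMVi.hIR-A(GFP), which expresses isoform A of the human insulin receptor with a green fluorescent marker (IR-A tumours). Those of the remaining 3 had the vector without insert (control tumours). Cells of both groups were stably transfected, selected with G418 and sorted for fluorescence. Each tumour was read on 1 array. Time of harvest, tumour size and mouse age are not in the labels. Nothing says that the tumours of a group came from separate transfected cultures, so the p-values reflect the spread of these 6 arrays alone, and part of it may be technical.

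Vessels grow toward tissue that secretes ligands for receptor tyrosine kinases on endothelial and mural cells. VEGFA is the main ligand of endothelial sprouting and signals through the receptor KDR, PGF and VEGFB bind FLT1, and VEGFC acts through FLT4 on lymphatic vessels. ANGPT1 stabilises vessels through the receptor TEK, and ANGPT2 can oppose it. FGF2 is a heparin-binding mitogen of endothelial cells, and PDGF chains recruit pericytes and stroma. ANGPTL4 inhibits lipoprotein lipase and also acts on endothelium, and its gene responds to low oxygen and to the fatty acid sensors of the PPAR family. Low oxygen stabilises the HIF transcription factors, of which VEGFA is the best known target in liver tumours. Host vessels in a xenograft are of the mouse, whereas ligands made by the tumour cells are human.

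The promoters of 3 of these genes are printed because their signal leads the results: FGF2 had the smallest p of the 10, PDGFA had the largest difference, and ANGPTL4 followed the HIF targets most closely across tumours. The sequences are from RefSeq, build GRCh38.p14, and run from 250 bases before to 50 bases after a start, 5′ to 3′ on the strand of the gene. Capitals mark the core that HIF binds, searched as ACGTG and GCGTG on both strands (on the printed strand also CACGT and CACGC).

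ANGPTL4, chr19:8363905-8364204, + strand: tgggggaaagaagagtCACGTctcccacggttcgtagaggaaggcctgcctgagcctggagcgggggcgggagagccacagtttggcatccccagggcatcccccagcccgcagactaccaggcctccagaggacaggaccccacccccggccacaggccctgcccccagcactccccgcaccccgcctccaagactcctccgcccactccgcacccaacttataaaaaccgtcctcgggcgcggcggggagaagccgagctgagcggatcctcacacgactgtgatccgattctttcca

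FGF2, chr4:122826581-122826880, + strand: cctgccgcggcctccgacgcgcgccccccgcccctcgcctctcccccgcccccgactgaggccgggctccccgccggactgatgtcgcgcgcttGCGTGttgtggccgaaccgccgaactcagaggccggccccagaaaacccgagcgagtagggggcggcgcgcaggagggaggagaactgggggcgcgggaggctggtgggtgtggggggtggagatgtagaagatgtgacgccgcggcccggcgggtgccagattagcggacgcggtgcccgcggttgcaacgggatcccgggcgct

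PDGFA, chr7:520177-520476, - strand: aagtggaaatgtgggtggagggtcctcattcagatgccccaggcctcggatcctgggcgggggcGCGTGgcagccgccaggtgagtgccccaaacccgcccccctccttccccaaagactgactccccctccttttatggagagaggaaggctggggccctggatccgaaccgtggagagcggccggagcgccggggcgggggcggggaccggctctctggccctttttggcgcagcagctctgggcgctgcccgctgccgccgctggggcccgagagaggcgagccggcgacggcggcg

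For PDGFA the first of the 4 starts listed is shown. RefSeq promoters were at hand for 6 of the 10 genes, with 10 starts, and 9 of the 10 starts held the HIF core at least once. The start without it was 1 of the 4 of PDGFA. The starts are not independent, since the stretches of the PGF starts overlap and hold the same copy of the core. Over all 35116 promoters of the same length the share was 48.4%. The core holds a CpG, and the promoters of these genes were rich in G and C, from 66.3% to 84.7% against a median of 58.7% over all. Among the 10347 promoters with at least 66.3% G and C, the share with the core was 66.9%. That set is cut at the lowest value of these genes, whose median was 73.8%, so it was not matched to their G and C content. A match of 5 letters is a description and not a binding site.

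The array-wide picture was as follows. INSR, which the plasmid encodes, read 8.04, 7.61 and 8.47 in control and 10.65, 11.31 and 11.01 in IR-A tumours (log2 signal), a difference of 2.95 in the direction the labels give (SE 0.26, limma adjusted p = 0.0769). Of 24726 probe sets, 0 passed limma's test at an adjusted p of 0.05 (0.0%), whereas 3493 (14.1%) had an unadjusted p under 0.05. For 4248 probe sets (17.2%) the values of both groups were fully separate. With control tumour 2 left out, 308 probe sets passed. Liver markers were bright in all tumours, with albumin (ALB) between 12.82 and 13.09 and alpha-fetoprotein (AFP) between 12.38 and 12.74. As a rough level of signal without transcript, 355 olfactory receptor probe sets had a median of 3.01 and a 95th percentile of 4.45, below which lay 46.0% of all probe sets. The number of arrays limits the precision. In bulk tumours, fewer cells of a type and less RNA per cell cannot be told apart.

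None of the 10 growth factors passed the test. At an adjusted p of 0.05 limma called 0 of 10, against 0.0% of all probe sets, and at an unadjusted p under 0.05 there was 1, FGF2, against 14.1%. Groups did not overlap for 2 of 10, FGF2 lower and ANGPT2 higher in IR-A tumours, against 17.2% of all probe sets (9.45% with IR-A tumours lower and 7.73% with IR-A tumours higher). The median log2 difference was 0.0087 with 5 genes above and 5 below 0, beside -0.03 over all probe sets. The median size of a difference, without its sign, was 0.13 for the 10 genes and 0.13 for all probe sets. The differences ran from -0.58 (PDGFA) to 0.34 (VEGFA). The count of 1 gene at an unadjusted p under 0.05 became 3 without control tumour 2 (FGF2, PDGFA and ANGPTL4, all lower in IR-A tumours). There 21.1% of all probe sets had such a p. The count became 0 without control tumour 1, IR-A tumour 1 or IR-A tumour 3. The shares of all probe sets there were 9.0%, 8.72% and 12.0%. Without control tumour 3 the single gene was VEGFA, against 11.7% of all probe sets. These counts with tumours left out were chosen after the data were seen.

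**Figure D1:**
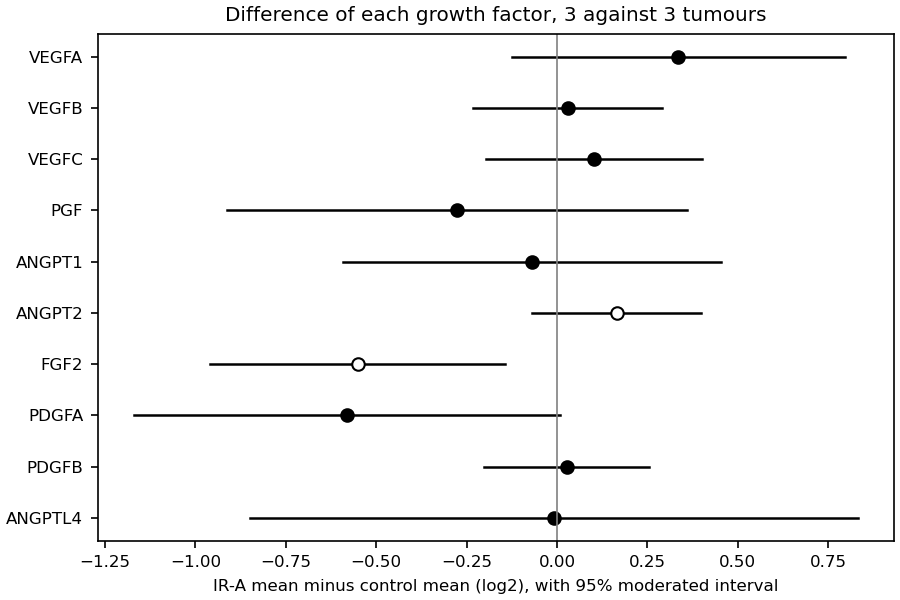
Points are the difference of group means, IR-A minus control, of each growth factor on the log2 scale (x axis), 3 tumours per group, and lines are limma's moderated 95% intervals; open points are genes whose mean signal over all 6 tumours lay at or below 4.45, the 95th percentile of olfactory receptor probe sets. Of the 10 intervals, that of FGF2, from -0.96 to -0.14, lies apart from 0, and that of PDGFA ends at 0.0079.

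All 4 genes of the VEGF family lay above the olfactory receptor level. VEGFA, the main sprouting ligand, read 8.50, 8.55 and 9.05 in control and 8.91, 9.31 and 8.88 in IR-A tumours. The groups overlapped, because control tumour 3 read above 2 of the IR-A tumours. The means were 8.70 ± 0.31 (SD, n = 3) and 9.04 ± 0.24 (SD, n = 3), a ratio of 1.26 with a 95% interval from 0.917 to 1.74 (limma adjusted p = 0.508). An increase of VEGFA by as much as 1.74-fold is therefore inside the interval, and a fall below 0.917-fold is outside it. The difference of 0.34 was 0.51 without control tumour 3 and 0.20 without IR-A tumour 2, the tumour with the most VEGFA signal.

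VEGFB, which binds FLT1 and not KDR, was the steadiest of the family among IR-A tumours, at 6.55, 6.49 and 6.52. In control tumours it read 6.30, 6.57 and 6.60. The difference was 0.03, with an interval from -0.23 to 0.29 (adjusted p = 0.939). Its sign turned negative under quantile normalization (-0.0092). VEGFC, the lymphatic ligand, read 5.02, 5.002 and 5.28 in control and 5.06, 5.35 and 5.20 in IR-A tumours. The groups overlapped, and the difference of 0.10 had an interval from -0.20 to 0.40 (adjusted p = 0.777). PGF, placental growth factor, read 7.04, 7.03 and 7.72 in control and 6.77, 6.74 and 7.45 in IR-A tumours. In each group 1 tumour stood well above the other 2, so the spread within a group (SD 0.40 in both) was larger than the difference of -0.28 (interval -0.91 to 0.36, adjusted p = 0.711). That difference was -0.0477 without control tumour 3 and -0.51 without IR-A tumour 3, the tumours with the most PGF signal.

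**Figure D2:**
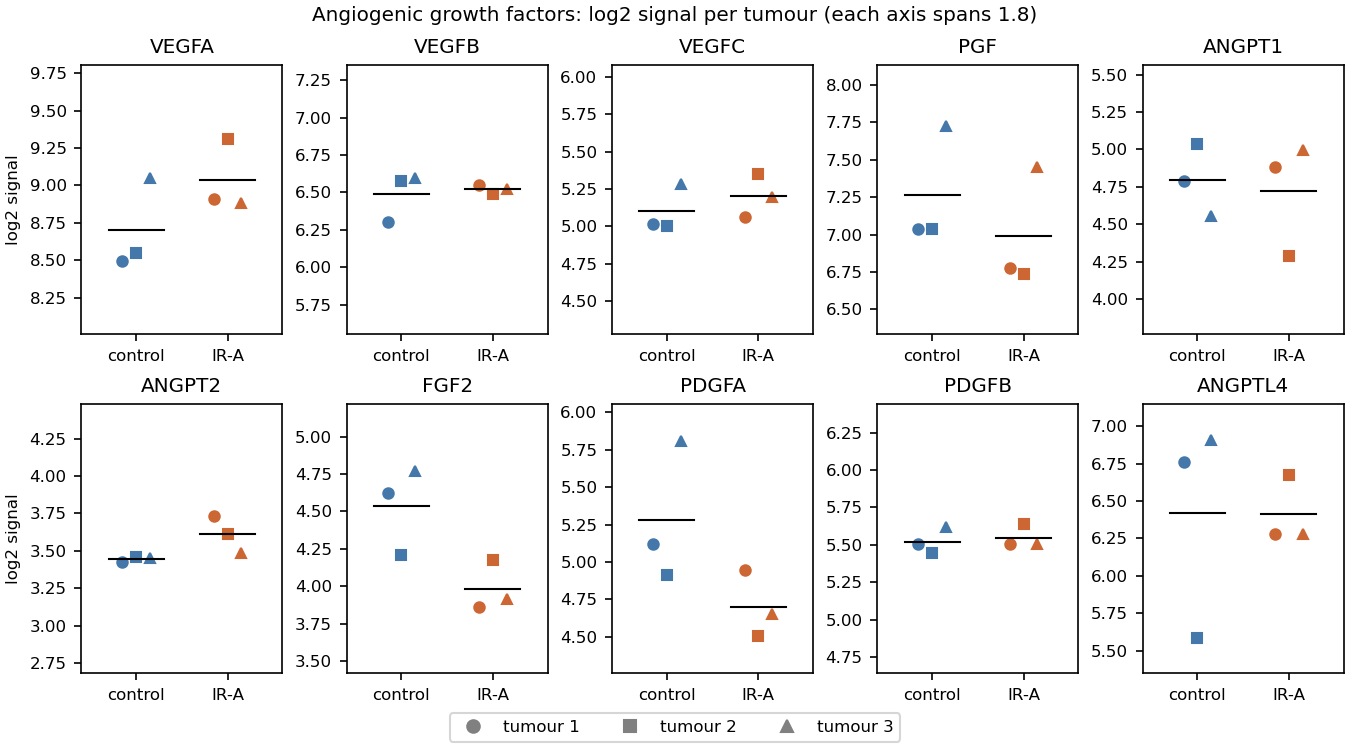
Each panel plots the log2 signal of 1 growth factor (y axis, spanning 1.8 in every panel) in the 3 control and 3 IR-A tumours, with the group mean as a line. FGF2 is the gene whose 3 IR-A tumours all lie below the 3 control tumours, ANGPT2 the one where all lie above, and ANGPTL4 shows control tumour 2 at 5.59, below all the others.

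Both angiopoietins were weak. ANGPT1, the stabilising ligand of TEK, read 4.79, 5.04 and 4.55 in control and 4.88, 4.29 and 4.9995 in IR-A tumours. The groups overlapped, and the difference of -0.07 (interval -0.59 to 0.45, adjusted p = 0.929) turned positive with array weights (0.02). ANGPT2, the context-dependent antagonist, read 3.43, 3.46 and 3.45 in control and 3.73, 3.61 and 3.48 in IR-A tumours. All IR-A tumours were higher, but IR-A tumour 3 exceeded the highest control by little, and the gene lay below the 95th percentile of olfactory receptor probe sets. The difference was 0.16 (SE 0.10, interval -0.07 to 0.40, adjusted p = 0.522).

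FGF2 had the smallest p of the 10. It read 4.62, 4.21 and 4.77 in control and 3.86, 4.18 and 3.92 in IR-A tumours. The groups did not overlap, yet control tumour 2 and IR-A tumour 2 lay next to each other. The means were 4.54 ± 0.29 (SD, n = 3) and 3.98 ± 0.17 (SD, n = 3), a difference of -0.55 (SE 0.17, interval -0.96 to -0.14) or a ratio of 0.682 (interval 0.514 to 0.905). The adjusted p from limma was 0.242. It ranged from 0.0706 without control tumour 2, where the difference was -0.71, to 0.584 without IR-A tumour 1. All 3 IR-A tumours and control tumour 2 lay below the 95th percentile of olfactory receptor probe sets (4.45), and control tumours 1 and 3 lay above it.

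The PDGF chains differed from each other in size of difference. PDGFA, the chain that acts on PDGFRA, read 5.12, 4.91 and 5.81 in control and 4.94, 4.50 and 4.65 in IR-A tumours. Control tumour 2 read just below IR-A tumour 1, so the groups overlapped. The difference of -0.58 (SE 0.25) was the largest of the 10, with an interval from -1.17 to 0.0079 and a ratio of 0.669 (adjusted p = 0.361). Without control tumour 3, the tumour with the most PDGFA signal, it was -0.32, and without control tumour 2 it was -0.76 (adjusted p = 0.161). PDGFB, the chain that recruits pericytes through PDGFRB, read 5.50, 5.44 and 5.62 in control and 5.50, 5.64 and 5.50 in IR-A tumours. The same deposited value stood on 3 of the 6 arrays. Its interval was the narrowest of the 10 genes, from -0.20 to 0.25 around 0.03 (adjusted p = 0.938), which as a ratio is 0.870 to 1.19.

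Whether members of a family changed unequally was asked with within-tumour differences of log2 signal in 4 pairs. PDGFA minus PDGFB was -0.38, -0.53 and 0.19 in control and -0.56, -1.13 and -0.85 in IR-A tumours. The groups did not overlap, with a difference of -0.61 (SE 0.27). The exact two-sided permutation test gave p = 0.1, the smallest that 3 against 3 tumours allow, and 0.4 after Benjamini-Hochberg adjustment over the 4 pairs. VEGFA minus PGF was 1.46, 1.52 and 1.33 in control and 2.14, 2.57 and 1.43 in IR-A tumours, where IR-A tumour 3 lay within the control range (difference 0.61, SE 0.34, exact permutation p = 0.3). VEGFA minus VEGFB differed by 0.31 (SE 0.21, exact permutation p = 0.3) and ANGPT2 minus ANGPT1 by 0.23 (SE 0.28, exact permutation p = 0.5). With IR-A tumour 2 left out, ANGPT2 minus ANGPT1 differed by 0.0133 and VEGFA minus PGF by 0.35, and with IR-A tumour 3 left out by 0.43 and 0.92. No pair could have passed at this number of tumours.

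ANGPTL4 had the widest spread of the 10. It read 6.76, 5.59 and 6.91 in control and 6.28, 6.67 and 6.28 in IR-A tumours. Control tumour 2 lay far below the other controls, and the IR-A tumours lay between. IR-A tumours 1 and 3 held the same deposited value. The means of 6.42 ± 0.73 (SD, n = 3) and 6.41 ± 0.23 (SD, n = 3) gave a difference of -0.0091, but the interval from -0.85 to 0.83 leaves room for ratios from 0.555 to 1.78 (adjusted p = 0.995). The value rests on control tumour 2. Without it the difference was -0.43 (adjusted p = 0.209), and without control tumour 3 it was 0.24 (adjusted p = 0.869).

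The spread of ANGPTL4 went along with that of HIF targets. The mean of 10 HIF targets outside the growth factors (ADM, NDRG1, BNIP3, SLC2A1, PFKFB4, PDK1, ANKRD37, KDM3A, P4HA1 and DDIT4) was 8.56, 7.78 and 9.01 in control and 8.28, 8.77 and 8.48 in IR-A tumours. The group means of 8.45 ± 0.62 (SD, n = 3) and 8.51 ± 0.25 (SD, n = 3) were close beside that spread. Among control tumours, all 10 HIF targets were lowest in tumour 2 and highest in tumour 3. The same order of the 3 control tumours held for 6 of the 10 growth factors (VEGFC, PGF, FGF2, PDGFA, PDGFB and ANGPTL4), against 21.1% of all probe sets. Control tumours 1 and 2 were nearly equal for PGF (7.037 and 7.034), VEGFC (5.016 and 5.002) and PDGFB (5.50 and 5.44). For these genes the order of control tumours 1 and 2 is uncertain. The growth factors were read beside the HIF targets in this way after their values were seen.

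Across the 6 tumours, ANGPTL4 followed the HIF target mean with Pearson's r = 0.95 (exact permutation p = 0.00556, 0.0556 adjusted over the 10 growth factors) and Spearman's rho = 0.93 (exact permutation p = 0.0167, adjusted 0.111). Neither passed after adjustment. With control tumours 2 and 3 left out, the ones farthest from the median of the HIF target mean, r was 0.74 over 4 tumours. PDGFB had r = 0.88 (exact permutation p = 0.025, adjusted 0.125; rho = 0.88), or 0.82 without those tumours. Its signal ran only from 5.44 to 5.64, with the same value on 3 of the 6 arrays. VEGFC had r = 0.77 (exact permutation p = 0.0681, adjusted 0.198; rho = 0.77) and ANGPT1 r = -0.76 (exact permutation p = 0.0792, adjusted 0.198; rho = -0.89). VEGFA had r = 0.63 (exact permutation p = 0.174, adjusted 0.347; rho = 0.54). In control tumour 1, VEGFA was low (8.50) at a HIF target mean above that of IR-A tumours 1 and 3. FGF2 (r = 0.50, rho = 0.54), PGF (r = 0.40, rho = 0.31) and PDGFA (r = 0.38, rho = 0.26) had exact permutation p from 0.325 to 0.456, and for PGF and PDGFA r was -0.14 and -0.54 without control tumours 2 and 3. VEGFB (r = -0.12, rho = -0.09) and ANGPT2 (r = -0.06, rho = -0.31) had r near 0.

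**Figure D3:**
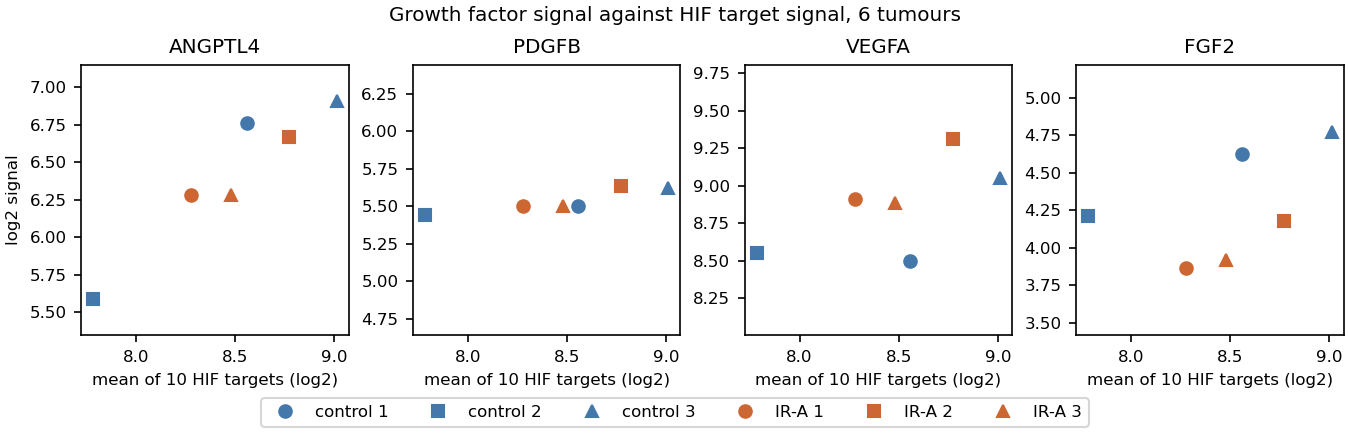
The log2 signal of ANGPTL4, PDGFB, VEGFA and FGF2 (y axes, each spanning 1.8) is set against the mean log2 signal of 10 HIF targets (x axis) in the 6 tumours. ANGPTL4 is low in control tumour 2, where the HIF target mean is 7.78, and highest in control tumour 3, where it is 9.01; the FGF2 points of IR-A tumours lie below those of the controls.

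Other genes of the pathway were read from 7 lists, of whose 94 entries 87 were measured under a symbol. Limma called 0 of them at an adjusted p of 0.05, as it did of all probe sets (0.0%). At an unadjusted p under 0.05 there were 0 of 13 receptors, 3 of 16 other ligands, 6 of 18 inhibitors, 2 of 12 processing factors, 2 of 8 oxygen sensing genes, 0 of 10 HIF targets and 3 of 10 PPAR genes, against 14.1% of all probe sets. From each list the 2 genes of smallest unadjusted p are described, since none passed.

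Receptors of these ligands had a median difference of -0.03. Of the 13, 7 lay at or below the 95th percentile of olfactory receptor probe sets, and these were FLT1, KDR, FLT4, TEK, TIE1, FGFR1 and FGFR2. The main endothelial receptors for VEGF and angiopoietins were thus not read above that level in human sequence. Receptors above it were NRP1, NRP2, FGFR3, FGFR4, PDGFRA and PDGFRB. FGFR3, an FGF receptor, read 7.53, 7.94 and 7.94 in control and 8.12, 8.13 and 8.02 in IR-A tumours (difference 0.29, SE 0.14, adjusted p = 0.416). PDGFRB, the receptor of PDGFB, differed by 0.24 (SE 0.13, adjusted p = 0.481). PDGFRA, the receptor of PDGFA, was named after its values were seen. Control tumour 1 read 7.86, far above control tumours 2 (6.31) and 3 (5.43), and the IR-A tumours lay from 5.40 to 5.83.

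Among other ligands (median -0.03), ANGPTL8, an insulin-responsive relative of ANGPTL4 that also restrains lipoprotein lipase, read 6.86, 7.03 and 7.32 in control and 7.94, 8.72 and 8.03 in IR-A tumours. All IR-A tumours were higher, with a difference of 1.16 (SE 0.23, adjusted p = 0.147). CCN2, a matricellular growth factor, read 9.43, 8.65 and 8.97 in control and 7.87, 8.09 and 8.65 in IR-A tumours. Its difference was -0.82 (SE 0.26, adjusted p = 0.258), and IR-A tumour 3 and control tumour 2 lay side by side.

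Inhibitors of angiogenesis had a median of -0.0020 and 6 genes of 18 higher at an unadjusted p under 0.05, against 7.1% of all probe sets in that direction. TIMP3, a protease inhibitor that also blocks VEGFA binding to KDR, read 7.91, 7.82 and 7.57 in control and 8.44, 8.27 and 8.21 in IR-A tumours (difference 0.54, SE 0.12, adjusted p = 0.165). CXCL10, an interferon-induced chemokine, read 3.56, 5.15 and 3.66 in control and 7.48, 5.51 and 6.46 in IR-A tumours (difference 2.36, SE 0.60, adjusted p = 0.189). The other 4 were KNG1, SPARC, HRG and SERPINF1, and KNG1, HRG and SERPINF1 are also plasma proteins of the liver. Of 8 liver markers, 4 had groups that did not overlap, all with IR-A tumours higher, against 7.73% of all probe sets. None of the 8 passed (lowest adjusted p = 0.256), and SERPINA1 had a difference of -0.05. The list mean ran from 11.84 to 12.05 in control and from 12.13 to 12.23 in IR-A tumours. Their part in the result was not tested.

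Processing factors had a median of -0.0082. FURIN, which cleaves VEGFC and PDGF precursors, differed by 0.37 (SE 0.15, adjusted p = 0.330), and PCSK5, a related convertase, by -0.26 (SE 0.10, adjusted p = 0.303). The mean signal of PCSK5 over the 6 tumours did not lie above the 95th percentile of olfactory receptor probe sets. Of 8 oxygen sensing genes, 6 had differences above 0, against 10881 of all 24726 probe sets, and the list median was 0.28. Groups were separate for 3 of the 8 (HIF1A, EPAS1 and ARNT), all with IR-A tumours higher, against 7.73% of all probe sets. EGLN1, a prolyl hydroxylase that marks HIF for destruction, read 8.83, 8.78 and 9.12 in control and 9.29, 9.69 and 9.12 in IR-A tumours (difference 0.46, SE 0.17, adjusted p = 0.318). ARNT, the constant HIF subunit, read 8.69, 9.15 and 8.93 in control and 9.33, 9.25 and 9.24 in IR-A tumours (difference 0.35, SE 0.13, adjusted p = 0.318). HIF targets had a median of 0.07, and groups were separate for 0 of 10, against 17.2% of all probe sets. That median was -0.33 without control tumour 2 and 0.33 without control tumour 3. KDM3A differed by 0.34 (SE 0.25) and PDK1 by 0.41 (SE 0.31), with adjusted p of 0.612 and 0.623.

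Of 10 PPAR receptors and targets, 9 had differences above 0, against 10881 of all 24726 probe sets, and the list median was 0.32. Groups were separate for 3 of the 10 (PPARA, PDK4 and CPT1A), all with IR-A tumours higher, against 7.73% of all probe sets in that direction. The mean signal of PDK4 over the 6 tumours (4.32) lay below the 95th percentile of olfactory receptor probe sets. CPT1A, which admits fatty acids to mitochondria, read 4.87, 7.25 and 6.36 in control and 8.96, 9.24 and 8.33 in IR-A tumours (difference 2.68, SE 0.59, adjusted p = 0.157). PPARA itself read 6.26, 7.22 and 7.25 in control and 8.03, 8.45 and 7.81 in IR-A tumours (difference 1.19, SE 0.30, adjusted p = 0.190). ANGPTL4, which is also a PPAR target, had a difference of -0.0091 in the same tumours. Control tumour 2, with the least ANGPTL4 signal, had the most CPT1A signal of the controls (7.25), but the least PPARG (8.44) and PLIN2 (9.62) signal. These genes were set beside ANGPTL4 after their values were seen. The part of PPAR in the ANGPTL4 values was not tested.

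**Figure D4:**
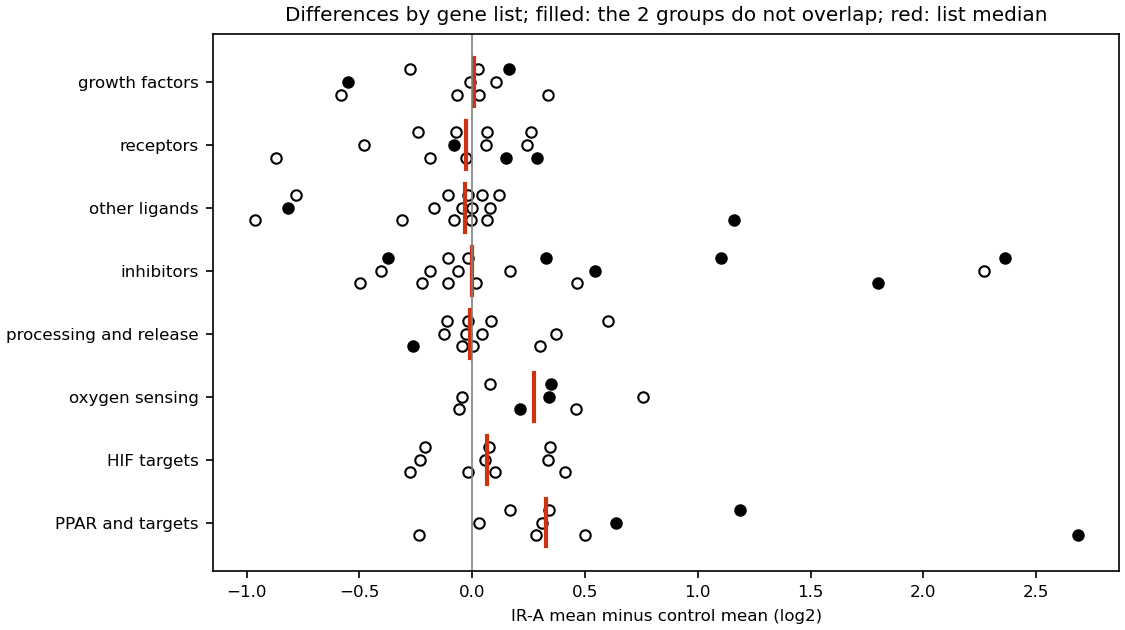
Each point is 1 gene, placed by its IR-A mean minus control mean on the log2 scale (x axis) and by list (y axis, points spread vertically for sight); filled points are genes whose 2 groups of 3 tumours do not overlap, and red lines are list medians. The growth factors centre on 0.0087, the PPAR genes on 0.32 and the oxygen sensing genes on 0.28, and ANGPTL8, CXCL10 and CPT1A lie far to the right.

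Markers of cells that a host could bring were read beside the growth factors. Mouse RNA is read only where it binds probes of human genes. No marker passed, and those named were chosen after their values were seen. Over all probe sets, groups were separate with IR-A tumours higher in 7.73% and lower in 9.45%. Of 11 endothelial markers 8 lay at or below the 95th percentile of olfactory receptor probe sets, CDH5, VWF, TEK and KDR among them. Above it, PECAM1 had separate groups with IR-A tumours higher (difference 0.51, SE 0.20, adjusted p = 0.332), the only 1 of the 11 to do so. ESAM (-0.31) and CLDN5 (-0.07), also above it, had differences below 0. Of the 11 differences, 3 were above and 8 below 0, with a median of -0.05. The list mean ran from 3.96 to 4.05 in control and from 3.92 to 4.01 in IR-A tumours. Pericyte markers (7 genes) ran from 4.84 to 5.001 and from 4.89 to 4.90, with differences from -1.09 for KCNJ8, the 1 gene of separate groups (adjusted p = 0.242), to 0.46 for RGS5. Platelet markers (5 genes) ran from 3.97 to 4.24 and from 3.88 to 4.02. Fibroblast markers ran from 4.45 to 4.93 in control and from 4.93 to 5.11 in IR-A tumours, with COL1A1, COL1A2 and LUM of 6 higher without overlap. LUM (mean 3.61 over the 6 tumours) lay below the olfactory receptor level, PDGFRA had a difference of -0.87, and DCN was at most 2.58 on every array. Macrophage markers ran from 4.53 to 4.78 and from 4.86 to 5.01, with 4 of 8 differences above and 4 below 0. TYROBP and CD68 were higher without overlap, CD14 had the lowest difference (-0.24), and PTPRC and CD163 were at most 3.04. The part of these cell types in the growth factor values was not tested.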

How the data were processed

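The authors deposited 1 log2 signal for each probe set on each array. The submitters' processing notes name RMA, a method of background correction, normalization and probe summary, and the Partek software, with no version. The log2 scale was read from the values. RMA compresses differences of dim probe sets. Neither the genome build nor the probe set definition is given in the sources used here. GEO's platform annotation named 23934 of 24726 probe sets, and 792 were unnamed here. Where a symbol had several probe sets, the brightest was used.

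IR-A and control tumours (3 each) were compared by lmFit and eBayes of limma 3.58.1 (R 4.3.3). P-values were adjusted over the whole table by Benjamini-Hochberg, and 0.05 was the threshold. Differences are IR-A minus control. The 4 pairs and the correlations with HIF targets used exact permutation tests (scipy 1.17.1). The fit was tested on simulated data.

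All 10 growth factors and INSR were named, and of each pathway list the genes past the threshold or else the 2 of smallest unadjusted p; genes outside this rule are stated or were named as examples of a count. The growth factors and lists were chosen with earlier results of these data known.

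Alternatives were quantile normalization, centring on array medians, filters that removed the dimmest 25% or 50%, array weights, robust moderation, moderation with an intensity trend, a replicate block, and leaving out each tumour. Figures used matplotlib 3.10.9.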

Additional observations from a re-analysis of the deposited data

How the results depend on the processing

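No growth factor was called in any of the 14 alternatives, and the filter on the dimmest 50% removed ANGPT2 and FGF2. FGF2 and PDGFA both had an unadjusted limma p under 0.05 with quantile normalization, the 25% filter, intensity trend, array weights or replicate block. So did 10.9% to 17.8% of the probe sets tested there. Without the dimmest 50% it was PDGFA alone, against 20.7%. With centring or robust moderation it was FGF2 alone, against 13.7% in each. Filters, intensity trend, robust moderation and the balanced block leave a difference as it is, so only the scalings, array weights and left-out tumours could turn a direction. In these, VEGFA, VEGFC, PGF, ANGPT2, FGF2 and PDGFA had the same sign throughout. Directions turned only for genes with differences near 0: VEGFB (-0.0092) and PDGFB (-0.0037) under quantile normalization, ANGPTL4 (0.0066) with centring on array medians, and ANGPT1 (0.0205) with array weights. With 1 tumour left out, the log2 difference ran from -0.0649 to 0.0832 for VEGFB, from -0.0183 to 0.0748 for PDGFB, from -0.21 to 0.15 for ANGPT1 and from -0.43 to 0.24 for ANGPTL4. It ran from 0.20 to 0.51 for VEGFA, from 0.03 to 0.19 for VEGFC, from -0.51 to -0.0477 for PGF, from 0.10 to 0.23 for ANGPT2, from -0.71 to -0.43 for FGF2 and from -0.76 to -0.32 for PDGFA. The 4 pair differences had the same sign in the 8 alternatives run on them, but their size varied with 1 tumour left out: from 0.15 to 0.43 for VEGFA minus VEGFB, from 0.0133 to 0.43 for ANGPT2 minus ANGPT1, from -0.75 to -0.39 for PDGFA minus PDGFB and from 0.35 to 0.92 for VEGFA minus PGF. The count of all probe sets called was 14 without the dimmest 25%, 20 without the dimmest 50%, 11 with array weights, and 0 to 308 with 1 tumour left out; the cause was not tested.

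The labels do not say whether the replicate numbers pair the tumours. Deviations of same-numbered tumours correlated at -0.29, -0.36 and 0.02, and so few tumours cannot decide the question. With the replicate block 0 probe sets and 0 growth factors were called, and the limma adjusted p of FGF2 was 0.435. For PGF the SE was 0.11 with the block and 0.27 without it, and the limma adjusted p with it was 0.468.

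The files give no background for a probe set. ANGPT2 lay within the olfactory receptor range in all tumours and FGF2 in 4 of 6, so it is uncertain whether their differences reflect transcript. This limit is apart from the spread between tumours, where ANGPTL4 had the largest SE of the growth factors (0.35).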
